A study of Mus musculus with 12 samples.

Results

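The genes described here are 8 of those that write, guide or remove DNA methylation in the mouse: the methyltransferases Dnmt1, Dnmt3a and Dnmt3b, the cofactors Dnmt3l and Uhrf1, and the oxidising enzymes Tet1, Tet2 and Tet3. They were chosen by name, through probe sets annotated with exactly these symbols, and all 8 were found among 20991 genes with a probe set of their own. Tet1 had 3 such probe sets and the others 1 each. Where a gene had several, the one with the highest mean signal stood for it.

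RNA of mouse embryonic stem cells (ESC) was profiled on 12 Affymetrix Mouse Gene 1.0 ST arrays, whose probes lie along the exons of each gene. The 4 groups of 3 arrays were mixed Bmpr1a-/- cells, separate Bmpr1a-/- cells, mixed wild-type cells and separate wild-type cells, all kept for 3 days in N2B27, a serum-free medium. Bmpr1a encodes a receptor for bone morphogenetic proteins. The Bmpr1a-/- cells were GFP-positive and the wild-type cells GFP-negative. For the mixed groups the genotypes shared a dish and were parted on GFP by flow sorting, and in the separate groups each genotype grew alone. The file headers name 1 line for each genotype, so genotype, line and GFP cannot be told apart. The sources used here do not say whether the separate cultures were sorted. The labels number the replicates, and the file headers give the same numbers as experiments 1 to 3 in each group. Neither says what the arrays of an experiment shared or that the replicates were separate cultures, so the p-values below measure the spread between these samples, which may be technical.

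Methylation of cytosine in CpG dinucleotides is laid down on unmethylated DNA by Dnmt3a and Dnmt3b, which Dnmt3l, a relative without catalytic activity, stimulates. Dnmt1 copies the pattern onto the new strand after replication, and Uhrf1 brings it to DNA methylated on 1 strand. Tet enzymes oxidise methylcytosine to hydroxymethylcytosine and beyond, from where unmethylated cytosine can be restored. In the mouse, Dnmt3l is known as a gene of ESC and germ cells, Dnmt3b is strongly expressed in the epiblast after implantation, and Tet1 and Tet2 are the main Tet enzymes of ESC.

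Values are the authors' signals from robust multi-array averaging (RMA) on a linear scale, and differences between groups are log2 differences, each with a standard error (SE). A gene passed where limma's p, adjusted by Benjamini and Hochberg's method across 17621 tested genes, was under 0.05. Signals of different probe sets were not compared with each other. The array medians lay between 51.6 and 54.3, and the correlation of any pair of arrays over the probe sets was between 0.9799 and 0.9981. In Bmpr1a-/- cells the signal of Bmpr1a was 362, 365 and 381 when mixed and 415, 425 and 462 when separate. Wild-type cells had 505, 512 and 555 when mixed and 525, 534 and 588 when separate. The genotypes did not overlap, but the sources used here do not place the probes relative to the deletion, so this is a weak check of the labels. Pou5f1, the defining transcription factor of pluripotent cells, was at or above 1679 on every array.

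Dnmt3l, Tet1 and Dnmt3b carried the widest differences, so the sequence before their annotated transcription starts is shown, as the substrate these enzymes act on. Each window runs over 250 bases before and 50 bases after a start, from RefSeq on GRCm38.p6, with every CpG in capitals. The Dnmt3l windows, 1 for each of its 3 annotated starts, lie on the plus strand at chr10:78042037-78042336, chr10:78049592-78049891 and chr10:78055085-78055384. That of Tet1 lies on the minus strand at chr10:62887275-62887574, and that of Dnmt3b on the plus strand at chr2:153649199-153649498.
Dnmt3l window 1: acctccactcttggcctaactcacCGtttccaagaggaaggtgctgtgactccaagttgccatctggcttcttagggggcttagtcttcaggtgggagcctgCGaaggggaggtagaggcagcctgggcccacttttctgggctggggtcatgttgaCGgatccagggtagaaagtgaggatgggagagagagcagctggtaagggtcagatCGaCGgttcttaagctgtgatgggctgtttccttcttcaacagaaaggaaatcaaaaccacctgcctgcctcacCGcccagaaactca
Dnmt3l window 2: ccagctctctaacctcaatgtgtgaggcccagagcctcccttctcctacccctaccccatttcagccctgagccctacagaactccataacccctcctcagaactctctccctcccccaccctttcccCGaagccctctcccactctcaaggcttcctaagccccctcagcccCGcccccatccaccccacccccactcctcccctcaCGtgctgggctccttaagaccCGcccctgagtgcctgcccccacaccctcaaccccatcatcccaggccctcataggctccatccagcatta
Dnmt3l window 3: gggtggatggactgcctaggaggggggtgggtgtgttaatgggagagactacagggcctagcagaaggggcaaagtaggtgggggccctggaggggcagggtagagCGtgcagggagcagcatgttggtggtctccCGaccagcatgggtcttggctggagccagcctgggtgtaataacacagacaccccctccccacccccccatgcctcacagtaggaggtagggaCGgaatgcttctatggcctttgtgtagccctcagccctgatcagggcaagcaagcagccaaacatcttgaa
Tet1: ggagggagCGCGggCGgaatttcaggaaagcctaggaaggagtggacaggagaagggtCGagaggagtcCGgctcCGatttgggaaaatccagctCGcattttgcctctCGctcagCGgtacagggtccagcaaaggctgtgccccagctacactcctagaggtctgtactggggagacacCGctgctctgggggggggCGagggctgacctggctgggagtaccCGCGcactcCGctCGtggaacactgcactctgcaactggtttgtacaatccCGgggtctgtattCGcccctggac
Dnmt3b: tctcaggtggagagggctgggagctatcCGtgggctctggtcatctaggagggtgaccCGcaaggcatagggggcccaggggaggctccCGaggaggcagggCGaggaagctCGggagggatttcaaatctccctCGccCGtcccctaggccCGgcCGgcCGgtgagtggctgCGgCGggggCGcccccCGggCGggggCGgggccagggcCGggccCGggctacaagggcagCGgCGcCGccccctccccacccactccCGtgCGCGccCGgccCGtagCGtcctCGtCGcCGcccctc

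The Dnmt3l windows held 6, 4 and 3 CpG, against a median of 7 over 32851 such windows, and 56.4%, 68.6% and 76.7% of all windows held as many or more. The Tet1 window held 17 CpG, a number reached by 31.4% of windows. The Dnmt3b window held 30, reached by 11.7%. Dnmt3b and Dnmt3l, which act together, differed in the number of CpG around their own starts. CpG reads the same on both strands. No methylation was measured in these samples, and which Dnmt3l start was in use was not tested.

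**Figure D1:**
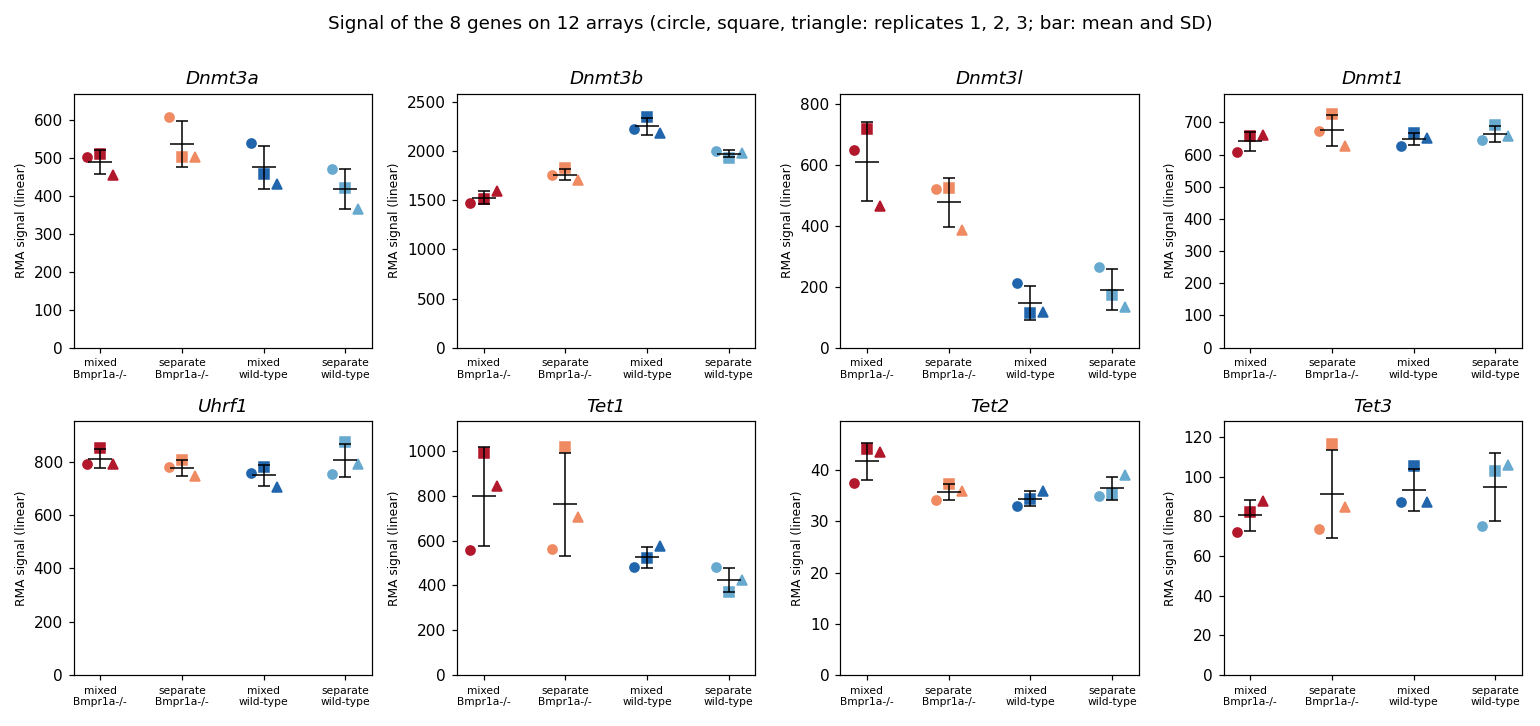
RMA signal (linear axis from 0) of the 8 genes on each of the 12 arrays, with the mean and SD of each group of 3. The Dnmt3l points of both Bmpr1a-/- groups lie above those of both wild-type groups, the 4 Dnmt3b groups are stepped without overlap, and Dnmt1 stays between 607 and 725.

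Dnmt3l was the gene of the 8 with the widest spread between groups. Bmpr1a-/- cells gave a signal of 647, 716 and 465 when mixed and 520.0, 524 and 385 when separate. Wild-type cells gave 212, 115 and 116 when mixed and 264, 172 and 134 when separate. All 6 Bmpr1a-/- arrays lay above all 6 wild-type arrays, while mixed and separate cells of the same genotype overlapped. In mixed culture Dnmt3l was 4.24-fold higher in Bmpr1a-/- than in wild-type cells (95% interval 2.82 to 6.36, log2 difference 2.08, SE 0.27, limma adjusted p = 0.000247). In separate culture it was 2.58-fold higher (1.72 to 3.88, log2 difference 1.37, SE 0.27, limma adjusted p = 0.00666). With any 1 of the 12 arrays left out, the log2 difference stayed between 1.94 and 2.37 in mixed and between 1.15 and 1.64 in separate culture, and the gene passed each time.

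Dnmt3b, the partner that Dnmt3l stimulates, went the other way between the genotypes, with a difference that passed in mixed culture only. The signal was 1467, 1517 and 1596 where Bmpr1a-/- cells were mixed and 1752, 1823 and 1704 where they were separate. Mixed wild-type cells gave 2219, 2347 and 2187, and separate wild-type cells 2002, 1932 and 1982. No group overlapped another, and the order downwards was mixed wild-type, separate wild-type, separate Bmpr1a-/- and mixed Bmpr1a-/-. The share of all genes with 4 groups apart was not computed, and mixed against separate culture did not pass in either genotype. In mixed culture the level in Bmpr1a-/- cells was 0.678 of that in wild-type cells (95% interval 0.618 to 0.744, log2 difference -0.56, SE 0.06, limma adjusted p = 8.89e-05). In separate culture the difference was -0.16 (SE 0.06, limma adjusted p = 0.117) and did not pass.

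Dnmt3a, the other de novo enzyme, differed less. Mixed Bmpr1a-/- cells gave 502, 509.9 and 453, and separate ones 607, 502 and 501. In wild-type cells it was 539, 456 and 431 when mixed and 471, 419 and 365 when separate. The separate genotypes did not overlap, the mixed ones did. The difference between genotypes was 0.36 in separate culture (SE 0.11, limma adjusted p = 0.0598) and 0.04 in mixed culture (SE 0.11, limma adjusted p = 0.883), neither of which passed. The separate-culture value lay close to the threshold and crossed it with the replicate block (limma adjusted p = 0.00524), after quantile normalizing again (0.0361), after centring the arrays on their medians (0.0283), with a filter at the 40th percentile (0.0486), and without replicate 1 of the separate (0.0351) or mixed wild-type cells (0.047).

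The maintenance pair was nearly level over the 4 groups. In Bmpr1a-/- cells Dnmt1 had a signal of 607, 657 and 660.5 when mixed and 673, 725 and 628 when separate. In wild-type cells it had 627, 667 and 651 when mixed and 645, 691 and 656 when separate. Every group overlapped every other. The highest and lowest group means of Dnmt1 were 0.07 apart on the log2 scale, and the genotypes differed by -0.02 in mixed (95% interval -0.17 to 0.14) and 0.02 in separate culture (-0.13 to 0.17). Uhrf1 had 793, 853 and 790.0 in mixed and 781, 806 and 747 in separate cells that lack Bmpr1a. Its wild-type signals were 759, 782 and 706 when mixed and 753, 874 and 791 when separate. Its mixed genotypes did not overlap, though the difference was only 0.12 (95% interval -0.04 to 0.28, limma adjusted p = 0.358). In separate culture it was -0.05 (95% interval -0.21 to 0.11). Neither Dnmt1 nor Uhrf1 passed between the genotypes, and the upper ends of their intervals reached 0.28.

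Tet1 was the Tet gene with the widest difference. Mixed Bmpr1a-/- cells gave a signal of 556, 989.8 and 845, and separate ones 565, 1016 and 706. Wild-type cells had 483, 521 and 575 when mixed and 481, 372 and 423 when separate. The separate genotypes did not overlap, whereas the lowest mixed Bmpr1a-/- array lay below the highest mixed wild-type array. Replicate 1 was the lowest in both Bmpr1a-/- groups, and these groups had a wider spread (SD 221 mixed and 231 separate) than the wild-type groups (SD 46.4 mixed and 54.5 separate). In separate culture Tet1 was 1.75-fold higher in Bmpr1a-/- cells (95% interval 1.26 to 2.42, log2 difference 0.81, SE 0.22, limma adjusted p = 0.0301). In mixed culture the difference was 0.56 (SE 0.22, limma adjusted p = 0.0998) and did not pass, but with the replicate numbers as a block it passed at adjusted p = 0.0472. The separate-culture call was lost without Bmpr1a-/- replicate 2 (adjusted p = 0.131) or 3 (0.0605), without wild-type replicate 2 (0.118) or 3 (0.0676), and with no filter on dim probe sets (0.0584). In mixed culture Tet1 also passed with array weights (difference 0.61, adjusted p = 0.0222) and without Bmpr1a-/- replicate 1 (0.0164).

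The 3 Tet1 probe sets, which share the gene and the arrays and so are not replicates of each other, gave the same picture. Tested as separate entries among 19028 probe sets, their differences between genotypes were 0.81, 0.79 and 0.82 in separate culture (limma adjusted p = 0.0325, 0.0208 and 0.0184). In mixed culture they were 0.56, 0.58 and 0.54 (limma adjusted p = 0.104, 0.0616 and 0.0814). Replicate 1 was the lowest Bmpr1a-/- array for each probe set in each kind of culture.

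**Figure D2:**
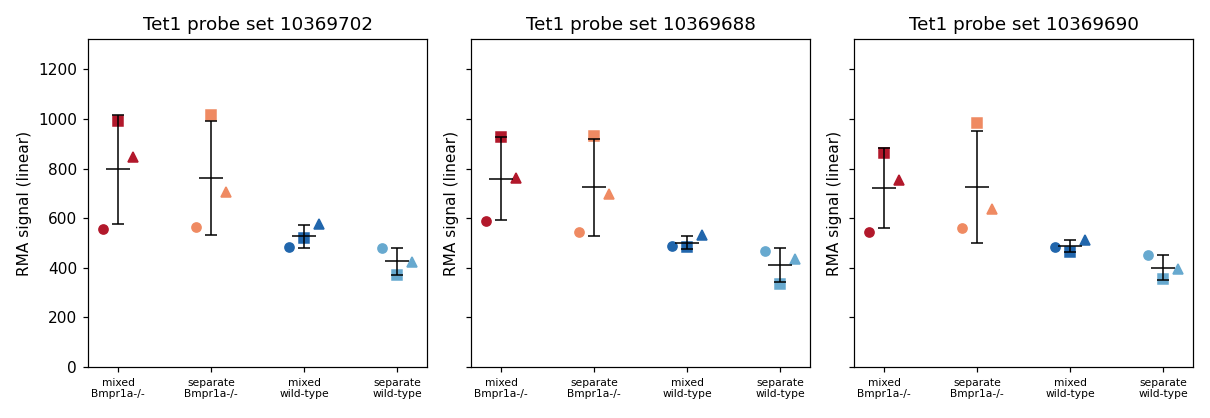
RMA signal (linear axis from 0) of the 3 Tet1 probe sets on each array (circle, square and triangle are replicates 1, 2 and 3), with the mean and SD of each group of 3. In every panel the separate Bmpr1a-/- points lie above the separate wild-type points, and replicate 1 is the lowest Bmpr1a-/- point.

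Tet2 was dim, and its 12 signals lay between 33.1 and 44.0, above the filter of 25.4. Bmpr1a-/- cells gave 37.5, 44.0 and 43.5 when mixed and 34.1, 37.3 and 35.9 when separate. In wild-type cells it gave 33.1, 34.4 and 35.8 when mixed and 34.8, 35.3 and 39.0 when separate. The mixed Bmpr1a-/- arrays lay above both the mixed wild-type and the separate Bmpr1a-/- arrays. In mixed culture Tet2 was 1.21-fold higher in Bmpr1a-/- cells (95% interval 1.07 to 1.36, log2 difference 0.27, SE 0.08, limma adjusted p = 0.0313). The call was lost without any 1 of the mixed arrays other than Bmpr1a-/- replicate 1 (adjusted p = 0.13 and 0.115 without Bmpr1a-/- replicates 2 and 3, and 0.107, 0.0795 and 0.0523 without wild-type replicates 1, 2 and 3). In separate culture the difference was -0.02 (SE 0.08).

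Tet3, the Tet enzyme best known from the oocyte and zygote, gave 72.1, 82.2 and 87.4 when Bmpr1a-/- cells were mixed and 73.6, 116 and 84.4 when they were separate. Mixed wild-type cells gave 87.0, 105 and 87.0, and separate ones 75.1, 103 and 106. All groups overlapped their neighbours in order of level. Tet3 passed in neither comparison between the genotypes (log2 difference -0.21, 95% interval -0.57 to 0.15, mixed, and -0.06, interval -0.42 to 0.30, separate).

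In mixed culture 3 of the 8 genes passed between Bmpr1a-/- and wild-type cells (Dnmt3l and Tet2 higher, Dnmt3b lower), where 16.5% of all genes passed (6.36% higher and 10.1% lower). In separate culture 2 of 8 passed (Dnmt3l and Tet1, both higher), where 11.2% of all genes passed (4.94% higher and 6.3% lower). At an unadjusted p under 0.05 there were 4 of 8 in mixed culture, against 28.1% of all genes, and 4 of 8 in separate culture, against 24.3%. The ranges of the genotypes were apart for 4 of 8 genes in each kind of culture, against 32.7% of all genes in mixed and 24.5% in separate culture. The median log2 difference of the 8 was 0.08 in mixed and -0.00 in separate culture, against -0.02 over all genes in each.

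**Figure D3:**
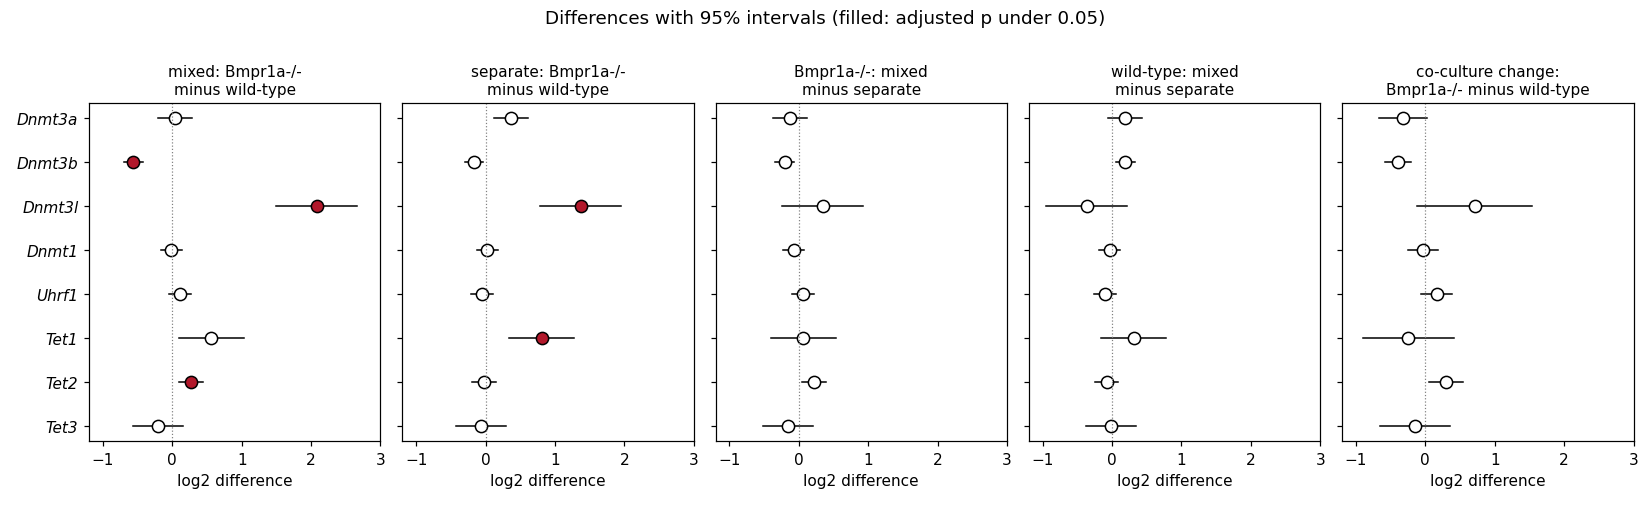
Log2 differences (x axis) of the 8 genes in the 5 comparisons, as points with 95% intervals, filled where the adjusted p was under 0.05. Dnmt3l is filled at 2.08 and 1.37 in the comparisons between genotypes, Dnmt3b at -0.56 in mixed culture, and no point is filled in the comparisons of mixed with separate culture or in their difference.

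Co-culture itself changed none of the 8 past the threshold in either genotype. Within Bmpr1a-/- cells, 0 of 8 passed between mixed and separate culture, where 1.58% of all genes did (limma; 878 genes in place of 279 with the replicate block, and still 0 of 8). At an unadjusted p under 0.05 there were 2, Dnmt3b (log2 difference -0.21, SE 0.06, adjusted p = 0.125) and Tet2 (0.22, SE 0.08, adjusted p = 0.2), and these were also the 2 genes whose ranges were apart, against 18% of all genes. Within wild-type cells 0 of 8 passed, and so did 0% of all genes (516 of 17621, or 2.93%, at an unadjusted p under 0.05). Here Dnmt3b differed by 0.19 (SE 0.06, unadjusted p = 0.00926, adjusted p = 1) and Tet1 by 0.31 (SE 0.22, adjusted p = 1). These were the 2 genes with ranges apart, against 6.99% of all genes. The other differences were of size 0.37 or less, with Dnmt3l at 0.35 in Bmpr1a-/- and -0.37 in wild-type cells, both with intervals across 0.

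The change of Dnmt3b with co-culture went down in Bmpr1a-/- cells and up in wild-type cells. The difference between those changes was -0.40 (SE 0.09, 95% interval -0.59 to -0.21, limma adjusted p = 0.067), so that it did not pass over all genes, though with no filter on dim probe sets it did (adjusted p = 0.0441). None of the 8 passed in this test, where 0.687% of all genes did. Tet2 differed by 0.30 (SE 0.11, adjusted p = 0.301), Dnmt3l by 0.71 (SE 0.38, adjusted p = 0.548) and Dnmt3a by -0.32 (SE 0.16, adjusted p = 0.504). For Dnmt3l the interval ran between -0.11 and 1.54, so a difference of considerable size could not be resolved with 3 arrays a group. The comparisons share arrays, and the values are given side by side for that reason.

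Over the 12 arrays the levels of Dnmt3b and Dnmt3l were inversely related (Pearson r -0.89), and less so within the 6 Bmpr1a-/- arrays (-0.60) and within the 6 wild-type arrays (-0.41). Dnmt3l and Tet1 had r 0.68 over the 12 arrays, but 0.10 within Bmpr1a-/- and -0.30 within wild-type arrays. Dnmt1 and Tet3 had r 0.68 over all arrays, 0.78 within Bmpr1a-/- and 0.63 within wild-type arrays. These are descriptions over few arrays that share genotype and replicate structure.

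Among 1732 genes whose group means spanned at least 0.5 on the log2 scale, those most like Dnmt3l over the 12 arrays were Mybl2 (r 0.99), a transcription factor of the cell cycle, Klhl13 (0.99), a ubiquitin ligase adaptor, Morc1 (0.99), which silences transposons in the male germ line, Alg13 (0.98) and the pluripotency-associated Dppa5a (0.98). Mybl2 followed Dnmt3l within each genotype too (r 0.93 and 0.95), whereas Dppa5a did so closely in wild-type arrays (0.98) and less in Bmpr1a-/- arrays (0.65). The genes most opposite to Dnmt3l were Stxbp4, Atp7b and Ttc21b (each r -0.98). Those most like Tet1 were Dst (0.94), Enah (0.94), Gse1 (0.93), Rest (0.93), a repressor of neuronal genes, and Lgals1 (0.92), and the most opposite Slc43a3 (-0.96), Idnk (-0.95) and Scrn2 (-0.95). Dnmt3b was most like Psmc3ip (0.96), Slc9a3r1 (0.96), Zic5 (0.96), a transcription factor of the primed epiblast, Acaca (0.95) and Dhx8 (0.95). Its most opposite genes were Atp6ap2, Tm7sf3 and Renbp (each r -0.97). With genotype separating the arrays, r over all 12 can be high for many genes, and their number was not counted.

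Dnmt3l and Tet1 both lie on chromosome 10, where 774 genes were tested with a median difference between genotypes of -0.01 in mixed and -0.01 in separate culture. Of its genes 16.5% passed in mixed and 11.2% in separate culture, the same shares as over all genes. The 5 measured genes on each side of Dnmt3l moved in both directions. Next to it, Aire, a transcription factor of the thymus, was 0.52 higher in mixed Bmpr1a-/- cells (SE 0.11, limma adjusted p = 0.00546), and Trappc10, a vesicle-tethering subunit, was 0.36 higher in mixed (adjusted p = 0.0252) and 0.34 higher in separate culture (adjusted p = 0.0434). Agpat3, a phospholipid enzyme, was 0.61 higher in separate culture (adjusted p = 0.00444), and Rrp1, of ribosome assembly, fell by 0.35 in mixed culture (adjusted p = 0.00445). Around Tet1 the RNA helicase gene Ddx21 fell by 0.41 (adjusted p = 0.000794) and the DNA helicase gene Dna2 by 0.60 (adjusted p = 0.000171) in mixed culture, and Hnrnph3 fell by 0.40 in mixed (adjusted p = 0.0086) and 0.53 in separate culture (adjusted p = 0.00312). Ccar1, next to Tet1, rose by 0.43 in separate culture (adjusted p = 0.0242), and Stox1 by 0.24 in mixed culture (adjusted p = 0.05 as rounded, just under the threshold). The difference of each of the 10 genes around Dnmt3l was smaller than that of Dnmt3l in the same culture, whereas Dna2 differed by more than Tet1 (0.56) in mixed culture.

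**Figure D4:**
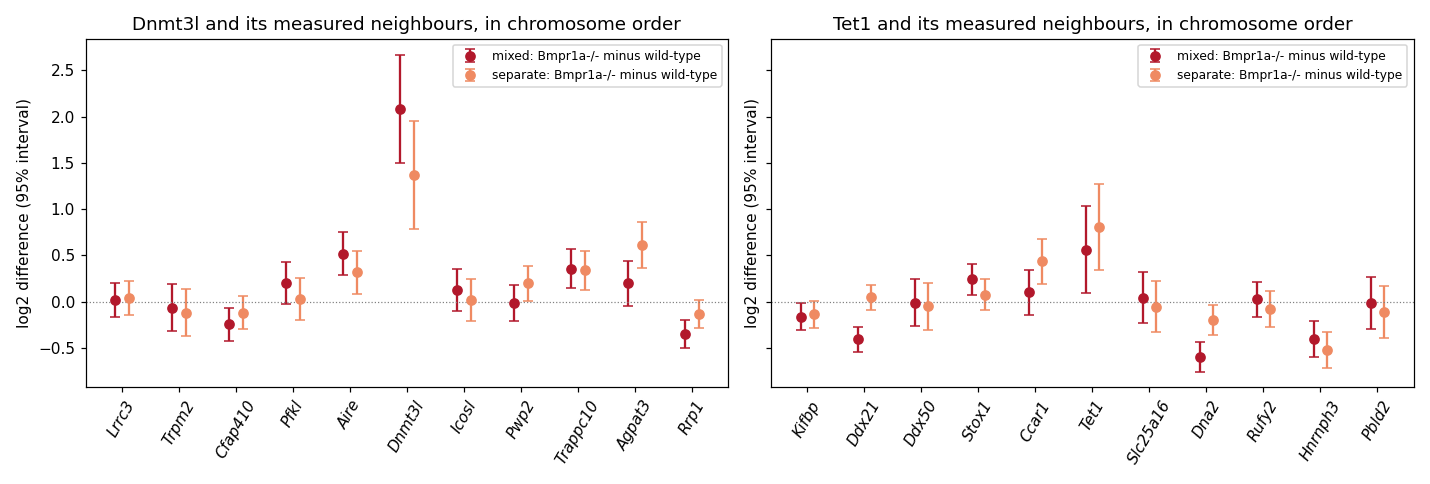
Log2 differences between Bmpr1a-/- and wild-type cells (y axis, with 95% intervals) of Dnmt3l, Tet1 and the 5 measured genes on each side of them, in chromosome order. Dnmt3l at 2.08 (mixed) and 1.37 (separate) stands above its neighbours, which lie on both sides of 0, and in mixed culture Dna2 at -0.60 lies further from 0 than Tet1 at 0.56.

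The genes that work with these enzymes were taken from lists by role. Of 11 measured cofactors of maintenance methylation, 1 rose and 1 fell in mixed Bmpr1a-/- against mixed wild-type cells, and 1 rose and 1 fell in separate culture. These are 2 of 11 in each, beside 16.5% (mixed) and 11.2% (separate) of all genes that passed. Usp7, a deubiquitinase that stabilises Dnmt1 and Uhrf1, rose by 0.27 in mixed (limma adjusted p = 0.0354) and 0.33 in separate culture (adjusted p = 0.0176). Cdca7l, a relative of the chromatin remodelling cofactor Cdca7, fell by 0.43 in mixed culture (adjusted p = 0.00479), and Uhrf2, the paralog of Uhrf1, fell by 0.37 in separate culture (adjusted p = 0.0147). Cdca7l kept its call with any 1 array left out. Usp7 lost it without any of 5 mixed arrays (adjusted p up to 0.144) and any of 3 separate arrays (up to 0.0824), and Uhrf2 without separate wild-type replicate 2 (0.0675).

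Genes of the families that hold the readers of methylated CpG were higher where they passed. Whether each of them binds methylated DNA was not tested. Of 10 measured, 3 rose in mixed and 4 in separate culture and none fell, where 6.36% and 4.94% of all genes rose, with medians of 0.21 and 0.24 against -0.02 over all genes in each. Mbd2, a subunit of the NuRD repressor complex, had a mean signal of 160.2 ± 11.4 in mixed Bmpr1a-/- cells and 121 ± 5.61 in mixed wild-type cells (SD, n = 3 each). It rose by 0.40 there (adjusted p = 0.0207) and by 0.53 in separate culture (adjusted p = 0.0074). Zbtb38 rose by 0.39 and 0.36 (adjusted p = 0.00216 and 0.00632). Mbd5 rose by 0.27 in mixed culture (adjusted p = 0.0288), and Zbtb33, also called Kaiso, by 0.52 (adjusted p = 0.0158) and Mbd3 by 0.40 (adjusted p = 0.019) in separate culture. Zbtb38 and, in separate culture, Mbd2 kept their calls with any 1 array left out. The other calls were lost without 1 or more arrays of the groups compared, at adjusted p up to 0.134.

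Of 21 measured partners of the Tet enzymes and genes of base excision, 5 rose and 2 fell in mixed culture and 2 rose and 1 fell in separate culture, with medians of -0.07 and -0.08. Of all genes 6.36% rose and 10.1% fell in mixed culture, and 4.94% rose and 6.3% fell in separate culture. Gadd45g, of a family implicated in active demethylation, had a signal of 428 ± 37.6 when mixed and 279 ± 19.4 when separate in Bmpr1a-/- cells, against 169 ± 28.6 and 181 ± 33.5 in mixed and separate wild-type cells (SD, n = 3 each). It rose by 1.35 in mixed (SE 0.14, limma adjusted p = 6.13e-05) and 0.64 in separate culture (SE 0.14, adjusted p = 0.0123, lost at 0.0581 without wild-type replicate 2). Ogt, the O-GlcNAc transferase that binds Tet proteins, rose by 0.69 (adjusted p = 4.24e-05) and 0.49 (adjusted p = 0.000998) and kept both calls with any 1 array left out. Gadd45b rose by 0.64 (adjusted p = 0.0147) and Apobec2 by 0.41 (adjusted p = 0.0113) in mixed culture. Both were lost without at least 1 mixed array (adjusted p up to 0.0676). The DNA glycosylase gene Neil3 fell by 0.45 in separate culture (adjusted p = 0.0436, up to 0.181 with 1 array left out). Co-culture in Bmpr1a-/- cells came with a rise of the glycosylase gene Neil2 by 0.40 (adjusted p = 0.038) and a fall of the endonuclease gene Apex1 by 0.38 (adjusted p = 0.0326), and both calls were lost without some single arrays (adjusted p up to 0.148).

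Among 20 genes that supply the methyl donor or the cosubstrates of the Tet enzymes, 2 rose and 1 fell in mixed and 3 rose and 1 fell in separate culture, with medians of -0.03 in each. The 3 of 20 in mixed culture did not exceed the 16.5% of all genes that passed there, and the 4 of 20 in separate culture stand beside 11.2%. Slc23a1, a transporter of vitamin C, which Tet enzymes use as a cofactor, showed the widest difference of the list. In Bmpr1a-/- cells its signal was 236 ± 42.5 (mixed) and 185.5 ± 8.45 (separate), against 51.0 ± 16.2 (mixed) and 53.7 ± 11.8 (separate) in wild-type cells (SD, n = 3 each). It rose by 2.25 in mixed (SE 0.20, limma adjusted p = 2.36e-05) and 1.81 in separate culture (SE 0.20, adjusted p = 0.00025). Tdh, the threonine dehydrogenase of mouse ESC that feeds one-carbon metabolism, rose by 1.15 (adjusted p = 0.0019) and 1.21 (adjusted p = 0.00267). Slc23a2, the second vitamin C transporter, rose by 0.42 in separate culture (adjusted p = 0.00207). Mat2b, a subunit of the enzyme that makes the methyl donor, fell by 0.46 (adjusted p = 0.00224) and 0.35 (adjusted p = 0.0173, up to 0.0789 with 1 array left out).

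A list of targeting factors of methylation and of upstream factors, among them the pluripotency factors Pou5f1 and Sox2, held 14 measured genes. Of these, 5 rose and 1 fell in mixed and 3 rose and none fell in separate culture, with medians of 0.23 and 0.16. Of all genes 16.5% passed in mixed (6.36% higher) and 11.2% in separate culture (4.94% higher). Zfp57, which keeps methylation at imprinted genes, rose by 1.03 in mixed (SE 0.11, limma adjusted p = 8.89e-05) and 0.69 in separate culture (SE 0.11, adjusted p = 0.0025). In mixed culture Dppa3, also called Stella, which shields methylation in the early embryo, rose by 0.84 (adjusted p = 0.00831), Sox2 by 0.77 (adjusted p = 0.00945) and the histone methyltransferase gene Nsd1 by 0.47 (adjusted p = 0.0114, up to 0.058 with 1 array left out). In separate culture Pou5f1 rose by 0.75 (adjusted p = 0.00025) and Suv39h1, of a histone methyltransferase of heterochromatin, by 0.38 (adjusted p = 0.00533). In mixed culture Pou5f1 had 2566 ± 102 in Bmpr1a-/- and 2211 ± 105 in wild-type cells (mean signal and SD, n = 3 each). Suv39h1 had 424 ± 30.9 and 317 ± 10.9 there, and its paralog Suv39h2 went the other way (200.1 ± 4.98 and 275.0 ± 15.9). Nanog had no probe set of its own and was not analysed here.

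Germline genes whose promoters are known to be silenced by methylation were higher in Bmpr1a-/- cells where they passed. Of 18 listed genes 15 were measured. Asz1 lay under the filter on dim probe sets, and Tuba3a and Tuba3b had no probe set of their own. Of the 15, 9 rose in mixed and 7 in separate culture and none fell, against 6.36% and 4.94% of all genes tested. The medians were 0.56 and 0.38. The filter was on the mean over all arrays, so a gene dim in wild-type cells could clear it through the Bmpr1a-/- groups. Sycp1 had means of 24.9 (mixed) and 25.5 (separate) in wild-type cells, near the filter of 25.4, and 37.2 and 33.2 in Bmpr1a-/- cells. Mael, a germ cell gene of transposon silencing, had a signal of 87.7 ± 7.65 (mixed) and 70.6 ± 4.99 (separate) in Bmpr1a-/- cells, against 39.0 ± 10.2 (mixed) and 39.3 ± 12.5 (separate) in wild-type cells (SD, n = 3 each). It rose 2.29-fold in mixed (limma adjusted p = 0.00124) and 1.85-fold in separate culture (adjusted p = 0.0121, lost at 0.0586 without separate wild-type replicate 2). Taf7l, a germ cell transcription factor subunit, rose by 1.16 (adjusted p = 0.00011) and 0.79 (adjusted p = 0.00267). Sycp3, of the meiotic synaptonemal complex, rose by 1.36 in mixed culture (adjusted p = 0.00532), and its difference in separate culture was 0.37 (adjusted p = 0.489). Hormad1, another meiotic chromosome gene, rose by 0.72 in separate culture (adjusted p = 0.00371) and, within Bmpr1a-/- cells, by 0.59 in mixed against separate culture (adjusted p = 0.0396, lost without any of 6 arrays at up to 0.164). In mixed culture Hormad1 was higher in Bmpr1a-/- cells too, with a signal of 83.5 ± 8.75 against 39.1 ± 3.61 in wild-type cells (SD, n = 3 each). Rpl10l rose by 2.01 and 1.69 (adjusted p = 3.25e-05 and 0.00025), with the reserve that it is a near copy of Rpl10. The germ cell genes Tex11 and Tex101 did not pass (0.06 and 0.07 in mixed culture). Their group means lay between 29.0 and 31.2, close to the filter of 25.4, so a difference could be hard to see. Taf7l was about as dim in wild-type cells (means of 30.5 mixed and 30.6 separate).

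**Figure D5:**
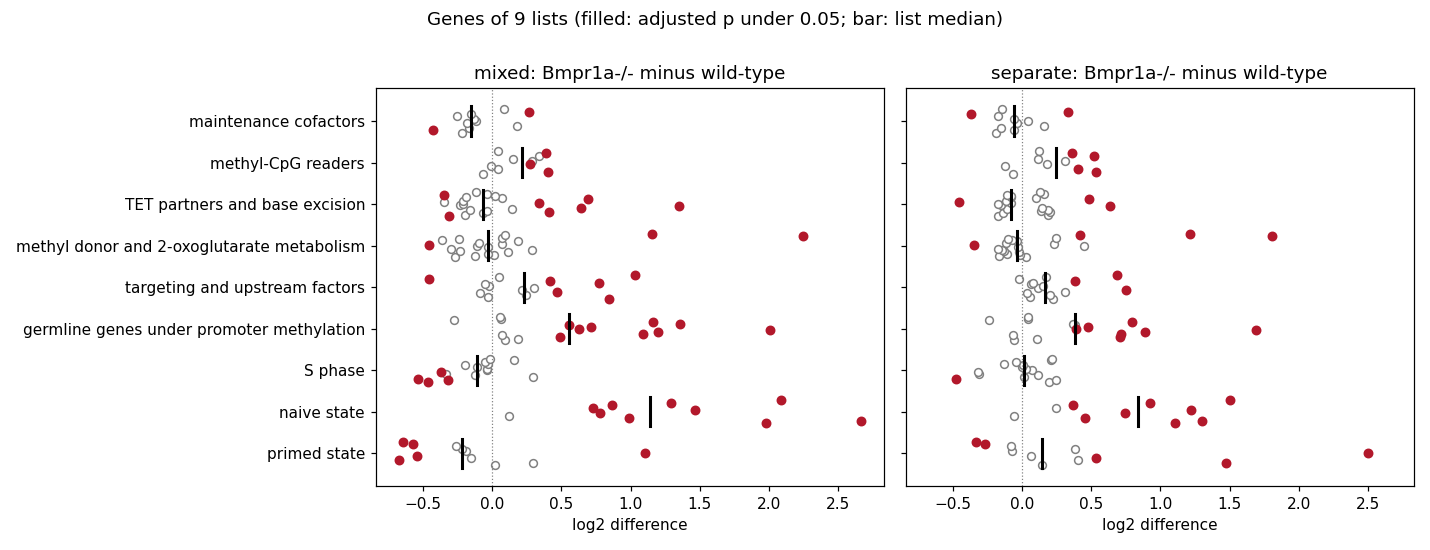
Log2 differences (x axis) between Bmpr1a-/- and wild-type cells of every measured gene of 9 lists, in mixed culture (left) and separate culture (right), filled where the adjusted p was under 0.05, with a bar at each list's median. The germline genes have medians of 0.56 and 0.38 and the naive genes of 1.14 and 0.84, while the maintenance cofactors have -0.15 and -0.06.

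Dnmt1 and Uhrf1 are known to be expressed in S phase, so genes of DNA replication were set beside them. Of 15 measured, 4 fell in mixed culture and 1 in separate culture and none rose, with medians of -0.11 and 0.01. Of all genes 10.1% fell in mixed and 6.3% in separate culture, so the 1 of 15 is near the share of all genes. Cdc6, which loads the replicative helicase, fell by 0.54 in mixed (limma adjusted p = 0.00116) and 0.48 in separate culture (adjusted p = 0.00443). In mixed culture Ccne1 fell by 0.47 (adjusted p = 0.00266), Gins2 by 0.37 (adjusted p = 0.0424) and Ccne2 by 0.32 (adjusted p = 0.0246), the last 2 of which were lost without some single arrays (adjusted p up to 0.185). Ccne1, of cyclin E, was the gene of the list that passed in the test of the difference between co-culture changes (-0.67, SE 0.12, adjusted p = 0.0301, up to 0.1 with 1 array left out). With co-culture of Bmpr1a-/- cells 2 of the 15 fell, Ccne1 and Ccne2, where 0.795% of all genes did. Both calls were lost without some single arrays (limma adjusted p up to 0.17 and 0.0861).

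Genes of the naive state of pluripotency were higher in Bmpr1a-/- cells where they passed, while those of the primed state that passed went both ways. Of 10 naive genes, 9 rose in mixed and 8 in separate culture, where 6.36% and 4.94% of all genes rose, among them Esrrb by 1.98 and 1.11 (limma adjusted p = 5.55e-06 and 0.000739) and Zfp42, also called Rex1, 4.25-fold and 2.83-fold (adjusted p = 0.000251 and 0.00419). With co-culture of Bmpr1a-/- cells 1 of the 10 rose, Esrrb, where 0.789% of all genes did. Esrrb lost this call without some single arrays (limma adjusted p up to 0.137). Of 11 primed genes, 1 rose and 4 fell in mixed culture, and 3 rose and 2 fell in separate culture, where 10.1% (mixed) and 6.3% (separate) of all genes fell. Zic5 fell by 0.65 and 0.33 (adjusted p = 0.00015 and 0.0154, the second up to 0.0548 with 1 array left out), Fgf5 fell by 0.67 in mixed culture (adjusted p = 0.00839), and Nodal rose by 1.10 and 2.50 (adjusted p = 0.00137 and 1.83e-05). Fgf15 and Foxd3 also rose in separate culture, by 1.28 to 1.60 and by 0.49 to 0.61 with any 1 array left out (limma adjusted p up to 0.00301 and 0.0169). With co-culture of Bmpr1a-/- cells 4 of the 11 fell, where 0.795% of all genes did, Nodal by 1.30 (adjusted p = 0.00602), Fgf15 by 1.16 (adjusted p = 0.0102), Fgf5 by 0.95 (adjusted p = 0.0111) and Foxd3 by 0.48 (adjusted p = 0.0261), where Dnmt3b differed by -0.21 and did not pass. Nodal kept this call with any 1 array left out, and the other 3 lost theirs without at least 1 array (adjusted p up to 0.114). In a fit on these 2 groups alone Nodal, Fgf5 and Foxd3 did not pass (adjusted p = 0.0621, 0.0637 and 0.092). Nodal, Fgf15 and Foxd3 fell from levels that in separate culture were above those of wild-type cells. In the difference between co-culture changes 3 of the 11 passed as lower (Nodal, Fgf5 and Foxd3), where 0.386% of all genes did. Each of these 3 lost that call without some single arrays (limma adjusted p up to 0.127). Whether the levels of the methylation genes depend on these genes was not tested.

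Markers of pluripotent and other cell types were measured beside these results, and the counts below stand beside the 16.5% (mixed) and 11.2% (separate) of all genes that passed. Of 9 measured markers of pluripotent cells, 5 rose in mixed culture, and 5 rose and 1 fell in separate culture. Pou5f1, Sox2, Sall4, Zfp42 and Esrrb are also in the lists above, so these counts are not independent of those. In a summed signal the brightest probe sets weigh most. Their summed signal ran between 10146 and 11391 (mixed) and between 10921 and 11751 (separate) in Bmpr1a-/- cells. In wild-type cells it ran between 6782 and 7431 (mixed) and between 6270 and 7377 (separate). Of 8 measured fibroblast markers, none passed in mixed culture and 1, Thy1, fell in separate culture (by 0.98, limma adjusted p = 0.000441). Their summed signal ran between 542 and 574 (mixed) and between 470.4 and 590.2 (separate) in Bmpr1a-/- cells, against 588 and 658 (mixed) and 687 and 735 (separate) in wild-type cells. Of 10 trophoblast markers, 3 rose in mixed culture, and 4 rose and 1 fell in separate culture, with summed signals between 1465 and 1889 over all arrays. Of 9 markers of extraembryonic endoderm, 1 rose and 1 fell in mixed and 1 fell in separate culture (summed signals between 380.1 and 489.7). Of 10 neural markers, 1 fell in mixed culture, and 1 rose and 1 fell in separate culture (summed signals between 1029 and 1388). The matrix genes Lum and Postn of fibroblasts and Ttr of visceral endoderm lay under the filter on dim probe sets. Fewer cells of a type and less RNA per cell cannot be told apart in these bulk samples, and the part of other cells in the results was not tested.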

How the data were processed

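Per the labels, total RNA of 12 ESC samples was hybridised to Affymetrix Mouse Gene 1.0 ST arrays. Per the submitters' processing notes, the authors used Affymetrix Expression Console 1.2 and RMA. Per the file headers, RMA included quantile normalization and summarization of core transcripts, values were set to the median of all the authors' samples, and 1 array of another day was left out. No genome build is named in the sources used here. The deposited log2 table held centred values. The deposited linear intensity sheet, called raw by the authors, minus that table, after taking log2, was the same on every array of a probe set to within 2.2e-06. It therefore held RMA signal, and its log2 was analysed here.

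Of 28815 probe sets, 22700 had 1 symbol, 2478 several and 3637 none. Of the 22700 symbols, 16822 were current in a RefSeq gene table (GRCm38.p6), 3900 were updated and 1978 kept. Probe sets under the 20th percentile of mean signal (25.4) were left out, and the one with the highest mean stood for each gene, leaving 17621 genes. All 8 methylation genes passed this filter. In limma 3.58.1 (R 4.3.3), a mean per group was fitted over the 12 arrays (8 residual degrees of freedom, eBayes), with 5 contrasts and two-sided Benjamini-Hochberg adjustment over all genes. The step was tested on simulated data. The number of arrays limits the precision.

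The genes, the 14 lists and the naming rule were chosen with earlier results of these data known. The rule named all 8 genes, per list and contrast the genes that passed (at most 4, by size, or the widest where none passed), for the 3 widest genes the 5 most like and 3 most opposite genes, and Bmpr1a. The neighbours, chromosome medians and a few further genes (Tex11, Tex101, Sycp1, Tdg, Thy1, Suv39h2, Pou5f1 as a marker) were chosen after the values were seen. Same-numbered arrays deviated together from their group means between mixed Bmpr1a-/- and mixed wild-type cells (r 0.64, 0.38 and 0.42) and between mixed and separate Bmpr1a-/- cells (0.39, 0.15 and 0.37), but not all did between the other groups. Per the file headers the numbers are experiments 1 to 3, and what an experiment shared is not stated. The alternatives were the centred table, quantile normalization, median centring, other filters, uncollapsed probe sets, a fit on the compared groups only, a trended robust eBayes, array weights, the replicate block and leaving out each array.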

Additional observations from a re-analysis of the deposited data

Results flagged for a closer look

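The change of Dnmt3b with co-culture ran in opposite directions in the genotypes. All 3 mixed Bmpr1a-/- arrays lay below all 3 separate Bmpr1a-/- arrays, and all 3 mixed wild-type arrays lay above all 3 separate wild-type arrays. The flag rests on these ranges and not on a test. Ranges were apart for 18% of all genes in Bmpr1a-/- and 6.99% in wild-type cells, and the share with both in opposite directions was not computed. The change in Bmpr1a-/- cells minus the change in wild-type cells was -0.396 on the log2 scale (SE 0.09, limma adjusted p = 0.067), which did not pass over all genes.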

How the results depend on the processing

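Dnmt3l in both comparisons between genotypes and Dnmt3b in mixed culture kept their direction and their call under every alternative run. The count of all genes between mixed and separate Bmpr1a-/- cells (279) was 46 with only the groups compared, 454 with array weights and 878 with the replicate block. That of the difference between co-culture changes (121) was 209 with array weights and 387 with the block. Centring the arrays on their medians gave 1 gene in place of 0 between mixed and separate wild-type cells, and the fit on the compared groups gave 1170 in place of 1981 between the separate genotypes. With no filter, 1 of the 8 genes passed in the difference of co-culture changes (Dnmt3b) and 1 between the separate genotypes (Dnmt3l). The cause was not tested for these settings, beyond the larger number of genes tested with no filter and the fewer samples in the fit on the compared groups.

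With 1 array left out, the counts of all genes ran between 1851 and 3122 (mixed genotypes), 1083 and 1967 (separate genotypes), 50 and 390 (mixed against separate Bmpr1a-/-), 25 and 132 (difference of co-culture changes) and 0 and 0 (mixed against separate wild-type). Of the 8 genes, between 2 and 4 passed for the mixed and between 1 and 3 for the separate genotypes. Of the list genes named, 24 of 32 that passed between the mixed genotypes, 20 of 29 between the separate genotypes, 1 of 10 between mixed and separate Bmpr1a-/- cells and 0 of 4 in the difference of co-culture changes kept their calls each time.

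Signs turned only for differences that did not pass. With array weights these were Dnmt1 in the difference of co-culture changes (0.0127), between the mixed (0.000708) and the separate genotypes (-0.0119), and Tet3 between mixed and separate wild-type cells (0.00916). After median centring they were Dnmt1 between the mixed (0.0291) and Tet2 between the separate genotypes (0.0135). With 1 array left out, Dnmt1 ran between -0.0397 and 0.0227 for the mixed genotypes, -0.0313 and 0.0725 for the separate genotypes and -0.0887 and 0.0151 in the difference of co-culture changes. Dnmt3a ran between -0.0237 and 0.139 for the mixed genotypes, Tet2 between -0.0552 and 0.0268 and Uhrf1 between -0.0969 and 0.0105 for the separate genotypes, and Tet1 between -0.128 and 0.306 for mixed against separate Bmpr1a-/- cells. Tet3 ran between -0.247 and 0.0819 for the separate genotypes, -0.302 and 0.027 for mixed against separate Bmpr1a-/-, -0.172 and 0.0773 for mixed against separate wild-type cells, and -0.289 and 0.0398 in the difference. The cause was not tested.

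Same-numbered arrays did not all deviate together between the separate genotypes (r 0.06, 0.05 and 0.34, with 3 of 6 arrays correlating best with their own number) or between the wild-type groups (0.57, -0.10 and 0.14). With the replicate block Dnmt3a passed between the separate genotypes (adjusted p = 0.00524), Tet1 between the mixed genotypes (0.0472) and Mat2a between mixed and separate Bmpr1a-/- cells (fell by 0.52, adjusted p = 0.00757). Fbxo15, Gadd45g, Mat2a, Sox2 and Sycp3 then passed in the difference of co-culture changes (0.0338 to 0.0451). In the fit on the compared groups alone, Tet2 (adjusted p = 0.0503) no longer passed between the mixed genotypes, nor did Usp7, Zbtb33, Mbd3, Mat2b and Zic5 between the separate genotypes (0.0534 to 0.0686), nor Apex1, Ccne1, Ccne2, Esrrb, Fgf5, Foxd3, Hormad1, Neil2 and Nodal between mixed and separate Bmpr1a-/- cells (0.0501 to 0.126). Signal over background was not measured for each probe set, and the Tet2 signals (33.1 to 44.0) lay close to the filter of 25.4.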
